A study of Neurospora crassa with 34 samples.

Results

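Inversion and duplication junctions were taken from the structural variant calls made on input DNA of 9 Neurospora crassa isolates that carry classical chromosome rearrangements. Of the 2782 calls in the lists, 239 were typed as an inversion or a duplication, 162 as inversions and 77 as duplications, and all 239 are described here. The remaining calls were 1199 deletions and 1344 interchromosomal junctions. Input DNA is the chromatin DNA of a chromatin immunoprecipitation that was kept back before the antibody step, and it was prepared from germinated conidia, the asexual spores of this fungus.

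N. crassa is a filamentous fungus whose nuclei are haploid for most of its life, so that a rearrangement is carried without a normal homologue beside it. Its chromosomes are called linkage groups (LG) and are numbered I to VII. The isolates are named by their rearrangement and their number at the Fungal Genetics Stock Center (FGSC). AR16 FGSC1614 is a mating type a strain with In(IL->IR)AR16, in which the arrow runs from the source arm of LG I to the receiving arm. AR16 FGSC2643 carries the same rearrangement name in its label, and its genotype was not given in the sources used here. ALS159 FGSC2100 is mating type A with T(IV->VI)ALS159, a transfer from LG IV to LG VI. OY329 FGSC3670 and OY320 FGSC3635 are mating type A with T(VI->III)OY329 and T(VI->III)OY320. OY337 FGSC3668 is mating type A with T(II->IV)OY337 and the pigment mutation al-2. UK2-32 FGSC7294 is mating type A with T(IVR->VL)UK2-32, and OY350 FGSC4641 is mating type A with T(VIL->IR)OY350. UK3-41 FGSC6869 is mating type A with T(VR)UK3-41 and the inositol requirement inl. No library of a strain without a rearrangement was analysed here, so a junction found in all 9 isolates cannot be told apart from a place where the reference assembly itself differs from them. Each isolate had 1 library, so no value of an isolate has a replicate error.

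A structural variant shows in short paired reads where the ends of a fragment, or the parts of one read, map to places that are not neighbours in the reference. A discordant pair brackets the junction, whereas a split read crosses it and gives its position to within a few bases. The caller, LUMPY, was run on both kinds of evidence apart, and it types a junction by the strands of its reads. A tandem duplication joins the end of a segment to its own start, which gives minus-plus reads. An inversion turns a segment around in place and makes a pair of junctions, of which one gives plus-plus and the other minus-minus reads. A deletion gives plus-minus reads. The type is therefore a statement about strands at a single junction, with no measured copy number and no traced segment behind it. Span is the distance in the reference between the most likely positions of the ends, and a call's support is its number of reads. The fold depth of the libraries was not in the lists, so a call that was not made has no upper limit.

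The isolates differed in how many inversion and duplication calls they had. AR16 FGSC2643 had 49, the most, and AR16 FGSC1614, which carries the same rearrangement name, had 16, the fewest, with a median of 25 over the 9 isolates. Inversion calls ran from 6 in AR16 FGSC1614 to 35 in AR16 FGSC2643 with a median of 19. Duplication calls ran from 4 in OY350 FGSC4641 to 14 in AR16 FGSC2643 with a median of 8. AR16 FGSC1614 was the only isolate with more duplication calls, 10, than inversion calls, 6. Read pairs gave 212 of the calls and split reads gave 27, of which 23 were inversions and 4 duplications.

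**Figure D1:**
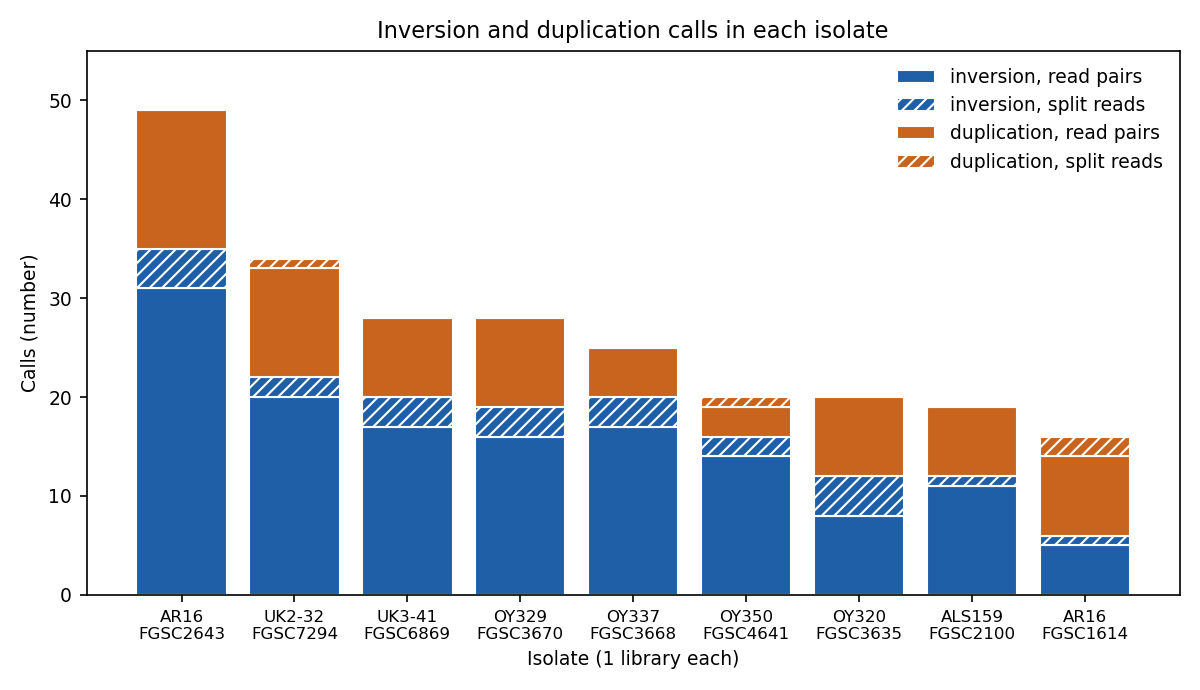
Number of inversion and duplication calls in each isolate (vertical axis, calls), stacked by type and by kind of evidence, with 1 library for each bar. AR16 FGSC2643 stands highest with 49 calls and AR16 FGSC1614 lowest with 16, where duplications outnumber inversions.

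Isolates with many deletion and interchromosomal calls also had many inversion and duplication calls. AR16 FGSC2643 had 669 of these other calls, OY350 FGSC4641 had 134, and the median was 256. Across the 9 isolates Pearson's r was 0.952 (exact permutation p = 0.000606, adjusted p = 0.00485) and Spearman's rho was 0.873 (exact permutation p = 0.00313, adjusted p = 0.00897). The adjustment was over the r and rho of 4 relations together. Without AR16 FGSC2643 and OY350 FGSC4641, the isolates farthest from the median of the other calls, r was 0.889 over 7 isolates (exact permutation p = 0.0103), and without AR16 FGSC2643 alone it was 0.848. For inversions alone r was 0.887 (exact permutation, adjusted p = 0.00897), and rho was 0.831 (adjusted p = 0.0155). For duplications alone r was 0.755 (exact permutation, adjusted p = 0.018), whereas rho was 0.639 (adjusted p = 0.0925). Inversion and duplication counts had r = 0.498 with each other (exact permutation, adjusted p = 0.196) and rho = 0.371 (adjusted p = 0.321). The part of sequencing depth in these relations was not tested. Inversions and duplications made up 6.82% of all calls in AR16 FGSC2643 (95% Wilson interval 5.2 to 8.91) and 13% in OY350 FGSC4641 (8.57 to 19.2), intervals that cover counting error alone.

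**Figure D2:**
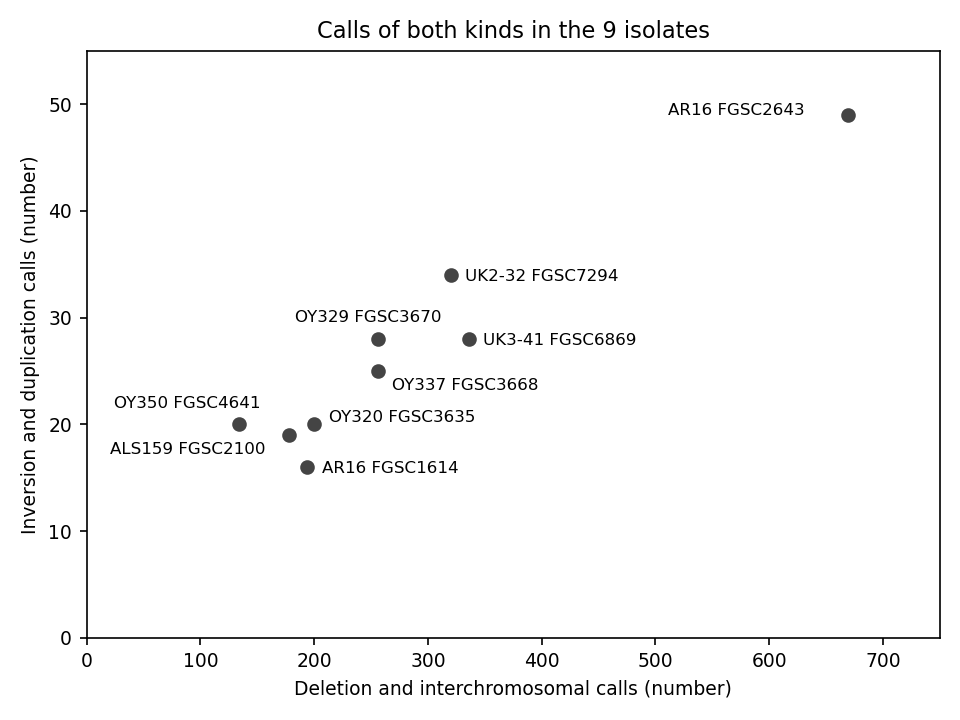
Inversion and duplication calls (vertical axis, number) against deletion and interchromosomal calls (horizontal axis, number), 1 point for each of the 9 isolates. AR16 FGSC2643 lies apart at 669 and 49, and the other 8 isolates lie between 134 and 336 other calls.

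Support was thin for most calls. The lowest number of reads behind a call was 4, and 84 of the 239 calls (35.1%) had exactly 4. The median was 5 reads for inversions and 6 for duplications, beside 8 for deletions and 5 for interchromosomal calls. At least 10 reads stood behind 19 inversions and 16 duplications. With a limit of 5 reads and an evidence score under 0.05, 104 inversions and 51 duplications were left. The score was infinite in 1 inversion call and under 0.05 in all other members. Over isolates, read-pair inversions had 0.995 times the mean reads of read-pair duplications (mean log2 ratio -0.01 ± 0.21 SD, n = 9), higher in 4 isolates and lower in 5 (exact sign-flip permutation p = 0.949, two-sided, adjusted p = 0.949 over 6 tests), a mean that changed sign when single isolates were left out. Split reads gave calls of both types in 3 isolates, where the log2 ratio was 0.00 in AR16 FGSC1614, 0.42 in OY350 FGSC4641 and -0.49 in UK2-32 FGSC7294.

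The call with the most reads of each type came from AR16 FGSC1614. The duplication joined LG III at 1897620 and 2563251, a span of 666 kb, with 27 read pairs and 5 split reads. The inversion lay on LG I at 2544713 to 2544884, a span of 171 bp, with 13 plus-plus and 18 minus-minus reads. UK2-32 FGSC7294 had an inversion call at the same place with 22 reads, 12 plus-plus and 10 minus-minus, and none of the other isolates had one.

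Most of the calls joined places far apart on a linkage group. The median span was 673 kb for inversions and 839 kb for duplications, and 64 inversions (39.5%) and 38 duplications (49.4%) spanned 1 Mb or more. Deletion calls had a median span of 766 bp, and 4.34% of them reached 1 Mb. The lower quartile was 329 kb for inversions and 57 kb for duplications. Per isolate, the median inversion span ran from 8744 bp in AR16 FGSC1614 to 997169 bp in OY337 FGSC3668, and the median duplication span from 86025 bp in OY329 FGSC3670 to 4972486 bp in ALS159 FGSC2100. Inversions had the shorter median in 6 isolates and the longer one in 3. The mean log10 ratio of inversion to duplication span was -0.45 ± 0.80 (SD, n = 9), a ratio of 0.356, and the difference did not pass the test (exact sign-flip permutation p = 0.129, two-sided, adjusted p = 0.193).

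The widest inversion in an isolate ran from 1400149 bp in AR16 FGSC1614 to 9479596 bp in AR16 FGSC2643. That widest call joined LG I at 21920 and 9501516 with 4 minus-minus reads. The next widest were at LG I 910361 and 9486891 in OY329 FGSC3670 (8576530 bp, 5 reads) and at LG I 963658 and 9515114 in AR16 FGSC2643 (8551456 bp, 5 reads). The widest duplication in an isolate ran from 6362140 bp to 7324831 bp, a narrow range. OY320 FGSC3635 held the widest, at LG I 2397578 and 9722409 with 4 reads, and a single shared junction, at LG I 2385499 and 9290714, was the widest duplication of 6 other isolates.

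**Figure D3:**
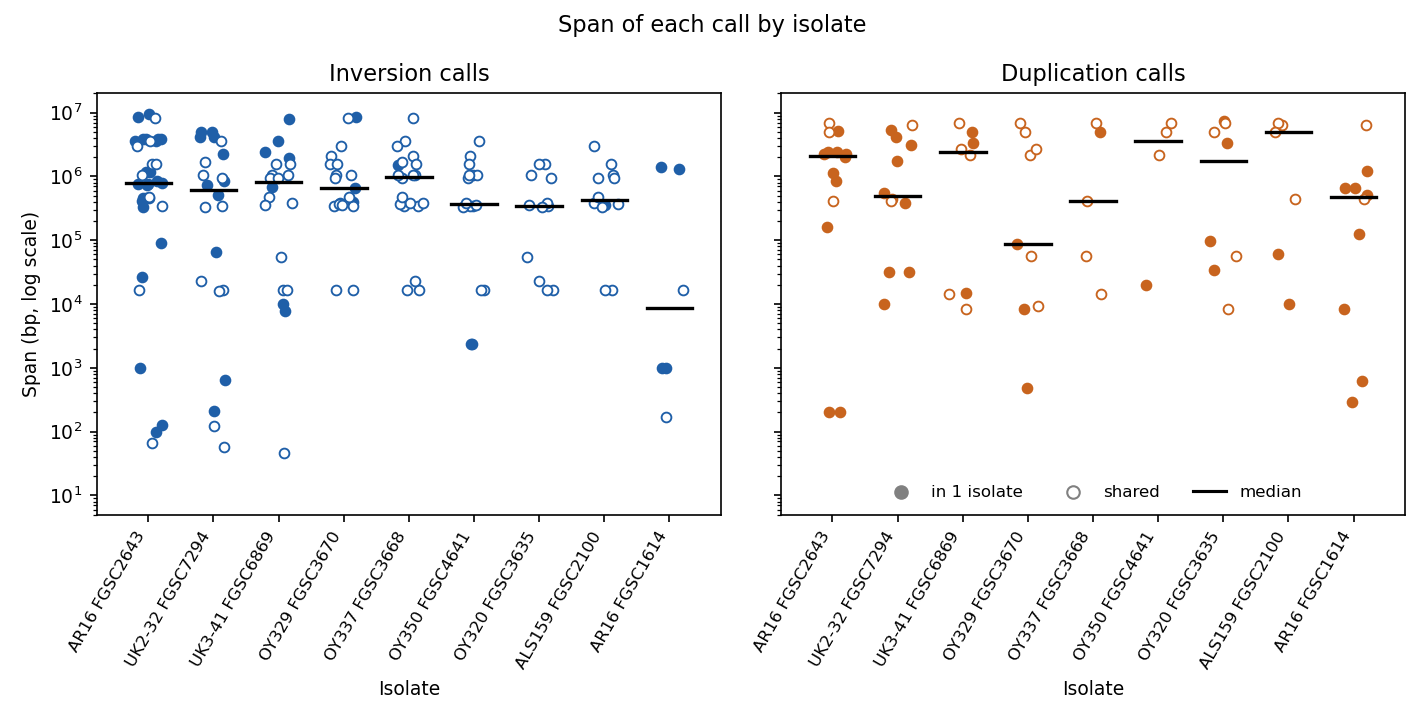
Span of each call in bp on a log scale (vertical axis) by isolate, inversions left and duplications right. Filled points are calls found in 1 isolate, open points are shared calls and black bars are medians, and the open points recur at the same heights across isolates, as at 16.5 kb for inversions and 6.91 Mb for duplications.

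A call was taken as shared when another isolate had a call of any type with both ends within 1000 bp, and as specific otherwise. Of the 239 calls, 142 were shared and 97 specific. Shared calls lay close together, with a median distance of 2.5 bp between the nearest partners and 94 of the 142 within 10 bp. The largest distance within the limit was 732 bp and the smallest beyond it was 2800 bp, so that no distance fell close to the limit. Inversions were specific in 54 of 162 calls (33.3%) and duplications in 43 of 77 (55.8%), beside 39.3% of deletions and 42.1% of interchromosomal calls. The share of specific members was 75% in AR16 FGSC1614 (95% Wilson interval 50.5 to 89.8), 73.5% in AR16 FGSC2643 (59.7 to 83.8) and 58.8% in UK2-32 FGSC7294 (42.2 to 73.6). It was 8% in OY337 FGSC3668 (2.22 to 25), and the median isolate had 21.4%. These intervals cover counting error alone and take calls as independent, although calls of the same junction were counted apart. With each junction counted once, 10 of 14 in AR16 FGSC1614 and 31 of 43 in AR16 FGSC2643 were in no other isolate. The same held for 17 of 30 in UK2-32 FGSC7294 and 2 of 22 in OY337 FGSC3668. Of the deletion and interchromosomal calls of the same isolates, the specific share was 68.6% in AR16 FGSC1614, 66.4% in AR16 FGSC2643, 46.2% in UK2-32 FGSC7294 and 17.6% in OY337 FGSC3668.

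Inversions were less often specific than duplications in 9 of 9 isolates. The mean difference was -19.7 ± 14.7 percentage points (SD, n = 9, exact sign-flip permutation p = 0.00391, two-sided, which is the smallest this test can give, adjusted p = 0.0234). The shared calls link the isolates, so the differences of the 9 isolates are not fully independent. The difference rested on calls with few reads. With at least 5 reads and a score under 0.05 it was 1.31 percentage points (exact permutation, adjusted p = 0.9), and 41.3% of inversions and 43.1% of duplications were specific. With at least 10 reads it was 31 percentage points in the other direction (exact permutation, adjusted p = 0.312). Without UK2-32 FGSC7294 it was -16.4 percentage points (exact permutation, adjusted p = 0.0703). Inversions and duplications together differed from deletions and interchromosomal calls by 1.02 ± 9.49 percentage points (SD, n = 9, higher in 6 isolates and lower in 3, exact sign-flip permutation p = 0.754, two-sided, adjusted p = 0.905), with a sign that turned when AR16 FGSC2643 (-4.05) or any of 4 other isolates was left out.

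Shared calls had 1.3 times the mean reads of specific ones (mean log2 ratio 0.38 ± 0.50 SD, n = 9), higher in 7 isolates, equal in UK2-32 FGSC7294 and lower in OY350 FGSC4641. The mean of the shared calls ran from 5.59 reads in OY350 FGSC4641 to 15.8 in AR16 FGSC1614, and that of the specific calls from 4 reads in OY320 FGSC3635 and OY337 FGSC3668 to 8 in OY350 FGSC4641. The difference did not pass after adjustment (exact sign-flip permutation p = 0.0391, two-sided, adjusted p = 0.0781). Among read-pair calls alone, a choice made after the data were seen, the log2 ratio was 0.45 (exact permutation, adjusted p = 0.0352), and without OY350 FGSC4641 it was 0.48 over all calls (exact permutation, adjusted p = 0.0312).

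Calls of one type whose ends lay within 1000 bp of each other were merged over isolates by chaining, which gave 120 junctions, 52 of duplications and 68 of inversions. A chained junction can be wider than the limit. On LG II the right ends of one inversion junction ran from 3688889 to 3690726, a width of 1837 bp. Of the duplication junctions 42 came from 1 isolate and 2 from 4 or more isolates. Of the inversion junctions 45 came from 1 isolate and 12 from 4 or more. No junction was found in exactly 8 isolates, and 1 was found in all 9.

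The junction in all 9 isolates was an inversion on LG II at 2115510 and 2132021, a span of 16.5 kb. It had 16 calls of 4 to 14 reads, and 7 isolates gave it from both read pairs and split reads. Of its 91 reads 90 were plus-plus and 1 was minus-minus, the latter in AR16 FGSC1614. The lists hold no call of fewer than 4 reads, so the read number at the other junction of an inverted segment is not known. Split reads placed the called junction at the same base pair positions in 7 of the 8 split-read calls, with 2115520 in place of 2115510 in OY350 FGSC4641.

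Further inversions recurred in most isolates, and the best supported of them had reads of 1 orientation. The junction on LG IV at 3058754 and 4655063 (1.6 Mb) was called in 7 isolates, all but AR16 FGSC1614 and UK2-32 FGSC7294, with 98 minus-minus reads in 11 calls, up to 17 in a call. Its 4 split-read calls fell on 1 pair of positions. The junction on LG III at 4261150 and 5209298 (948 kb) was called in the 7 isolates other than the AR16 isolates, with 51 plus-plus reads. An inversion on LG I at 8244378 and 9290589 (1.05 Mb) was called in 6 isolates with 13 plus-plus and 32 minus-minus reads.

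Among duplications, the junction on LG I at 2385499 and 9290714 (6.91 Mb) was called in 7 isolates, all but AR16 FGSC1614 and UK2-32 FGSC7294, with 8 to 16 reads each. Its left end was placed at the same base in all 7 and its right end within 17 bp. A junction on LG IV at 1009112 and 5981598 (4.97 Mb) was called in 5 isolates with 5 to 10 reads. The isolates without the LG I junction shared others. AR16 FGSC1614, UK2-32 FGSC7294 and ALS159 FGSC2100 had a duplication at LG I 578183 and 6940323 (6.36 Mb), with 15, 6 and 10 reads, and another at LG I 62917 and 500355 (437 kb), with 13, 5 and 6 reads. ALS159 FGSC2100 was the only isolate with both sets.

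**Figure D4:**
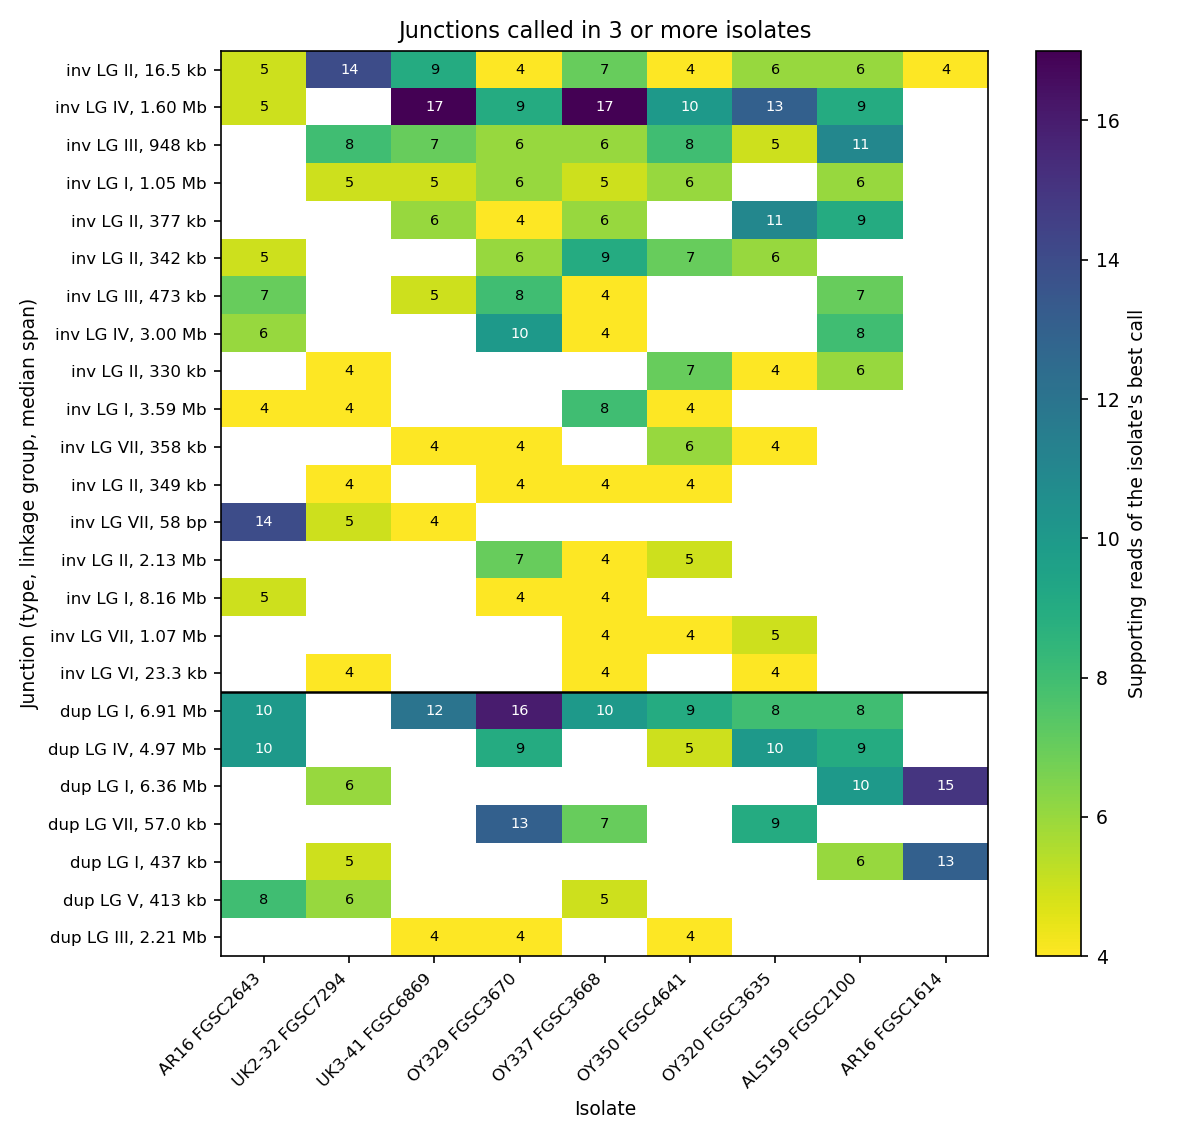
Junctions called in 3 or more isolates (rows, named by type, linkage group and median span) by isolate (columns), where the number and the colour give the supporting reads of the isolate's best call and white cells have no call. The first inversion row (16.5 kb on LG II) is filled in all 9 isolates, and the column of AR16 FGSC1614 has 3 filled cells.

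Isolates differed in which junctions they shared. Of the 36 pairs of isolates, OY329 FGSC3670 and OY337 FGSC3668 shared the most, 13 junctions, which was 54.2% of the 24 junctions of the former and 59.1% of the 22 of the latter. OY350 FGSC4641 shared 11 with each of these, 64.7% of its 17. OY329 and OY320, which carry rearrangements between the same linkage groups, shared 9 junctions, 37.5% and 50% of theirs. The AR16 isolates shared 1 junction, the one of all 9 isolates, which was 7.14% of the 14 junctions of FGSC1614 and 2.33% of the 43 of FGSC2643. AR16 FGSC1614 shared 4 junctions with UK2-32 FGSC7294, 3 with ALS159 FGSC2100 and 1 with each of the other isolates.

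Some shared calls clustered more loosely. When ends within 50 kb of each other were grouped, a grouping chosen after the data were seen, LG II held 24 inversion calls from 8 isolates, all but AR16 FGSC1614, whose left ends lay between 3303905 and 3317936 and whose right ends lay between 3643132 and 3700175. They made 6 junctions of 4 to 11 reads, with 14 calls written plus-plus and 10 minus-minus. On LG I, 11 inversion calls of 7 isolates joined a window of 9204 bp at 8235197 to a window of 8646 bp at 9290576. Another 7 inversion calls of 5 isolates joined a window of 18846 bp at 5922326 on LG I to one of 28907 bp at 9483932. In the former group 9 of the 11 calls were the recurrent junction at 8244378, whose left ends lay within 139 bp, and in the latter 4 of the 7 calls had left ends within 33 bp.

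LG I and LG II held most of the inversions, 46 calls (28.4%) each, and LG V the fewest, 3. These counts were not scaled to length. The highest position of any call was 9796099 on LG I and 4471339 on LG II, so equal counts fell on unequal lengths. The inversions of LG II came from 9 isolates and only 2 of the 46 calls were specific, whereas 26 of the 46 on LG I were specific. AR16 FGSC2643 alone gave 16 of the LG I inversions, and in the other 8 isolates 13 of 30 were specific. LG I also held 34 of the 77 duplications (44.2%), with a median span of 3393093 bp. An unplaced contig held 4 duplications, all specific, and no inversion. The share of deletions on LG I, 27.1%, was close to that of inversions. On LG II it was lower, 5.75%, and on LG VII higher, 37.4% beside 8.64% of inversions. By the strands written in the lists, inversion calls were uneven in orientation on LG IV and LG II. A shared junction was counted there once for each call. On LG IV 23 of 25 calls were minus-minus, 11 of them from the shared junction at 3058754. On LG II 32 of 46 were plus-plus, 15 of them from the junction of all 9 isolates.

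Over all inversions the orientations were balanced. The strand columns of the lists gave 75 calls as plus-plus and 87 as minus-minus, and the reads were 528 plus-plus and 515 minus-minus. All 77 duplications were minus-plus. In 14 inversion calls, all from read pairs, reads of both orientations were counted. Each of these 14 was written as minus-minus in the strand columns, although plus-plus reads were the more numerous in 8 of them and equal in number in 2. The strand columns alone therefore did not give the majority orientation of these 8 calls.

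A complete inversion would give reads of both orientations, and few calls had them. Such reads alone do not show that a segment was turned around in place. Counting each junction once per isolate, 23 of 136 inversion junctions (16.9%) had reads of both orientations, 14 within a call and 9 as separate calls. Of the 10 inversion calls under 1 kb, 7 had both orientations within the call. These short calls were at LG I 2544713 (AR16 FGSC1614 and UK2-32 FGSC7294), at LG VI 748499 (AR16 FGSC2643, 99 bp, 10 reads of each orientation), at LG VII 936849 (AR16 FGSC2643, 127 bp, 4 reads) and at LG VII 3322757 (AR16 FGSC2643, UK2-32 FGSC7294 and UK3-41 FGSC6869, 46 to 67 bp, with 14, 5 and 4 reads). No inversion call of 1 Mb or more held both orientations within the call.

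The 9 separate pairs came from 5 isolates and fell into distinct kinds by how far the plus-plus call lay from the minus-minus call at each end. In 5 pairs, of AR16 FGSC2643 and UK2-32 FGSC7294, the calls lay within 1 to 8 bp of each other at one end and 119 to 647 bp apart at the other. All 5 were junctions of 1 isolate. In AR16 FGSC2643 they were at LG I 4801369 and 8603614, LG I 5413317 and 6600350, and LG I 6480487 and 6940191. In UK2-32 FGSC7294 they were at LG I 1915605 and 6135463 and at LG I 1990767 and 6940191. The other 4 pairs, of OY329 FGSC3670, OY337 FGSC3668 and OY350 FGSC4641, lay 100 bp or more apart at both ends, and their junctions were called in 5 or 6 isolates. What gave the offsets of either kind was not tested.

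Duplications had a counterpart of their own. In 27 of the 77 duplication calls (35.1%) the same isolate had a deletion call with both ends within 1000 bp, and no inversion call (0 of 162) had one. Of the duplications of 1 Mb or more this held for 18 of 38 (47.4%). All 9 isolates had such calls, from 1 of 8 duplications (12.5%) in UK3-41 FGSC6869 to 3 of 4 (75%) in OY350 FGSC4641. The deletion calls had 4 to 21 reads. Counting read-pair and split-read calls of a place once, there were 25 such pairs, and the offsets between duplication and deletion again formed distinct kinds. In 10 pairs one end lay within 1 to 10 bp and the other 132 to 735 bp apart. In 15 pairs both ends lay 88 bp or more apart. These include a duplication of AR16 FGSC1614 at LG VI 3723445 and 3724068, whose span of 623 bp is below the 1000 bp limit. Its deletion, at 3724229 and 3724667, lay wholly outside it. The reads were 100 nt long.

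The duplication on LG I at 2385499 was of the latter kind, with a deletion 97 to 101 bp to the left at its left end and 132 to 159 bp to the left at its right end in all 7 isolates. The duplication with the most reads, on LG III in AR16 FGSC1614, was of the former kind, with a deletion of 16 reads that lay 352 bp away at the left end and 4 bp away at the right. On LG VII, OY320 FGSC3635, OY329 FGSC3670 and OY337 FGSC3668 had a duplication at 2068776 and 2125758 (57 kb, 9, 13 and 7 reads) with a deletion of 12, 21 and 12 reads that lay 727 to 735 bp away at the left end and 1 to 2 bp at the right.

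**Figure D5:**
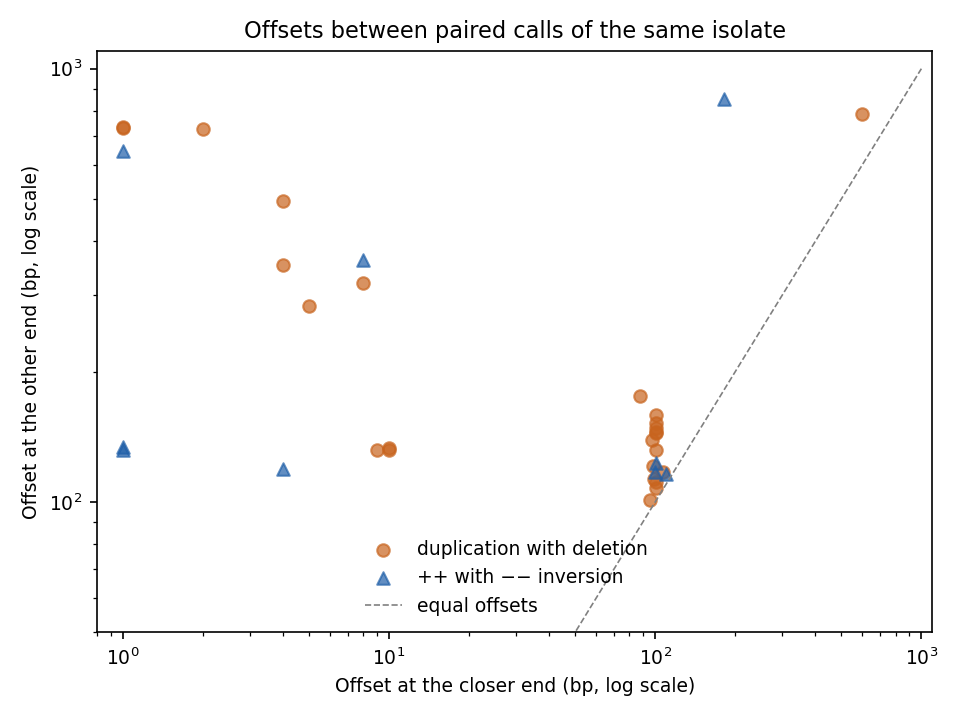
Offset in bp between paired calls of the same isolate at the closer end (horizontal axis, log scale) and at the other end (vertical axis, log scale), with circles for a duplication and a deletion and triangles for a plus-plus and a minus-minus inversion. In 15 of the 34 pairs the closer ends lie within 10 bp (left), and in the other 19 they lie 88 bp or more apart, most of them near the line of equal offsets.

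The same end served several junctions at some sites. End sites were formed by chaining ends within 1000 bp of each other. Of 212 sites, 15 belonged to 2 or more junctions, 8 of them to both an inversion and a duplication. One site belonged to 3 junctions, LG I 6940191 to 6940325, a stretch of 134 bp. It was the right end of the paired inversions at 6480487 in AR16 FGSC2643 and at 1990767 in UK2-32 FGSC7294, and of the paired duplication and deletion at 578183 in ALS159 FGSC2100, AR16 FGSC1614 and UK2-32 FGSC7294. In each of these 5 pairs the calls met within 1 to 10 bp at the left end and lay 132 to 134 bp apart at 6940191. No interchromosomal call ended within 1000 bp of it. By contrast, the site at LG I 9290576 to 9290715 served the inversion at 8244378 and the duplication at 2385499, and 15 interchromosomal calls of 8 isolates ended there too.

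Ends near interchromosomal calls were common among the members. An interchromosomal call of the same isolate ended within 1000 bp of either end in 66 inversions (40.7%) and 28 duplications (36.4%), beside 128 of 1199 deletions (10.7%). Among shared members the shares were 45.4% for inversions and 52.9% for duplications, and among specific members 31.5% and 23.3%. These shares are descriptions and were given no test.

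Junctions given by both read pairs and split reads were more frequent among inversions, mostly through recurrent junctions. Counted once per isolate, this held for 14 of 136 inversion junctions (10.3%) and for 2 of 75 duplication junctions (2.67%). The mean difference over isolates was 9.74 ± 6.71 percentage points (SD, n = 9), higher for inversions in 8 isolates and lower in UK2-32 FGSC7294 (exact sign-flip permutation p = 0.00781, two-sided, adjusted p = 0.0234). With at least 5 reads and a score under 0.05 the difference was 7.48 percentage points (exact permutation, adjusted p = 0.0781) and with ends within 200 bp it was 8.9 (exact permutation, adjusted p = 0.0703). The LG II junction of all 9 isolates gave 7 of the 14 inversions and the LG IV junction at 3058754 another 4. Each of these shared junctions was counted again in every isolate that had it. The differences of the 9 isolates are therefore not independent, and the test cannot tell a trait of inversions from these recurrent junctions.

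Only a few specific junctions had both kinds of evidence. The specific duplications were the one on LG III in AR16 FGSC1614 (27 read pairs and 5 split reads) and one at LG I 5783444 and 5814892 in UK2-32 FGSC7294 (31.4 kb, 15 read pairs and 7 split reads), and both had a deletion call at their ends. The specific inversions were at LG III 1553815 and 1554825 in AR16 FGSC1614 (1010 bp, 15 read pairs and 5 split reads), at LG VI 467509 and 469861 in OY350 FGSC4641 (2352 bp, 6 read pairs and 12 split reads) and at LG I 4801369 and 8603614 in AR16 FGSC2643. The last spanned 3.8 Mb and was the only one with both orientations in both kinds of evidence. It had 13 read pairs and 4 split reads that were minus-minus, and 11 read pairs and 7 split reads that were plus-plus, the latter at 4801488 and 8603618.

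AR16 is named as an inversion of LG I. The paper gives it from genetic mapping as a large inversion across the centromere. For AR16 FGSC1614 the paper lists no breakpoint as detected by sequencing. Inversion calls over 100 kb on LG I were therefore listed, and whether any of them is the mapped inversion was not tested. AR16 FGSC1614 had 1 such call, at LG I 2552222 and 3952371 (1.4 Mb) with 4 plus-plus reads. No call of any type in AR16 FGSC2643 lay at both of its ends. AR16 FGSC2643 had 15 such calls, 12 of them specific, of 4 to 14 reads, and none of the 15 lay at a call of AR16 FGSC1614. Apart from the 3 paired junctions above, they were single calls of 4 to 7 reads. The isolates named for other rearrangements had 0 in OY320 FGSC3635, 1 in ALS159 FGSC2100, 3 in OY350 FGSC4641, 4 in OY329 FGSC3670 and OY337 FGSC3668, 5 in UK3-41 FGSC6869 and 8 in UK2-32 FGSC7294, of which 6 were specific. Relative to all calls of an isolate, these inversions made up 0.476% in AR16 FGSC1614 and 2.09% in AR16 FGSC2643, beside 2.26% in UK2-32 FGSC7294 and 1.95% in OY350 FGSC4641. With at least 5 reads and a score under 0.05, AR16 FGSC1614 had 0 and AR16 FGSC2643 had 11.

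In the translocation isolates, the specific calls on the linkage groups of the rearrangement were counted. OY320 FGSC3635, OY329 FGSC3670 and OY337 FGSC3668 had 0 of 4, 0 of 6 and 0 of 2 specific calls there, where 2 of 20, 4 of 28 and 11 of 25 of all their inversion and duplication calls lay. ALS159 FGSC2100 had 2 of 4, an inversion on LG IV at 4659167 and 5019346 and a duplication on LG VI at 1173560 and 1183688, with 4 reads each, beside 5 of its 19 calls of both types. OY350 FGSC4641 had 2 of 3, beside 6 of its 20 calls, the read-pair and split-read calls of the LG VI inversion at 467509. UK2-32 FGSC7294 had 2 of 20, beside 4 of its 34 calls, both minus-minus inversions on LG IV with 7 reads, at 1167499 and 1890016 and at 2019373 and 4289437. Of its other specific calls 16 lay on LG I, which its name does not include. UK3-41 FGSC6869, in which a segment of LG V was moved to LG VI, had 4 of 10, beside 6 of its 28 calls. They were inversions on LG V at 3201415 and 3897250 (7 minus-minus reads) and at 4027389 and 6435013 (6 plus-plus reads), and minus-minus inversions on LG VI at 1179470 and 1189314 (6 reads) and at 1180531 and 1188233 (5 reads). The paper lists UK3-41 breakpoints within 1000 bp of LG V 3897250 and of LG VI 105926. A UK3-41 duplication at LG VI 105926 and 2797098 (8 reads) ended at the latter. It was not specific, since OY329 FGSC3670 shared it. No UK3-41 call of either type ended within 1000 bp of its other listed LG V breakpoint. The paper also lists breakpoints for ALS159, OY329 and OY320. No inversion or duplication call of ALS159 FGSC2100, OY329 FGSC3670 or OY320 FGSC3635 ended within 1000 bp of those listed for it. Some specific calls here had neighbours in the looser grouping above. The UK2-32 inversion at LG IV 1167499 was grouped with AR16 FGSC2643 inversions at 1152375 and 1154612. The UK3-41 inversions on LG VI were grouped with the ALS159 duplication at 1173560. The OY350 inversion at 467509 was grouped with inversions of UK2-32 FGSC7294 at 444488 and AR16 FGSC2643 at 446501. The other specific calls on the linkage groups of a rearrangement had no such neighbour. Whether any of the calls named here belongs to a translocation was not tested.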

How the data were processed

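Input DNA of the 9 isolates was sequenced as paired-end 100 nt reads. Per the authors' methods, discordant and split reads were found with bwa-mem and analysed with LUMPY (version 0.2.9), with limits of a call weight of 5 and a score under 0.05. The weight was read here as the number of supporting reads. The lists hold calls below these limits, and all were used. The score of a call, deposited by the authors as LUMPY wrote it, is smaller for stronger evidence. Read numbers, strands and most likely positions were read from each call's own fields, and 3 empty lines were skipped. Positions refer to the corrected N. crassa OR74A assembly (NC12), which the methods name for the ChIP reads. Contigs 1 to 7 were taken as LG I to VII.

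Spans in the tests are between interval midpoints. Tests were exact sign-flip permutation tests over isolates with Benjamini-Hochberg adjustment over 6 tests and a threshold of 0.05, and correlations had exact permutation p-values (Python 3.11.15, scipy 1.17.1). Scripts were tested on simulated data. The members and lists were chosen with earlier results of these data known. The calls named are the specific junctions with both kinds of evidence, the junctions of all or all but 1 isolates, the widest and best supported calls, and those tied to the named rearrangements. Other recurrent junctions, short inversions and paired calls were named after their values were seen. mRNA counts were not used, since genes were not placed on the assembly of the calls.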

Additional observations from a re-analysis of the deposited data

How the results depend on the processing

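Of 137 alternative values, 103 were classed as unchanged. For tests this meant the same direction and the same side of the threshold. Plain counts and shares, which have neither, were among the 137 and the 103. A minimum of 5 reads with a score under 0.05 left 104 inversions and 51 duplications, of which 41.3% and 43.1% were specific. It turned the difference in specific share to 1.31 percentage points between the types and to -0.10 between members and other calls, and gave 7.48 for the share with both kinds of evidence (exact permutation, adjusted p = 0.0781). A minimum of 10 reads left 19 inversions and 16 duplications, of which 68.4% and 43.8% were specific (57.1% together), and gave 31 percentage points between the types, 0 for both kinds of evidence (exact permutation, adjusted p = 1) and a log2 ratio of 0.26 for the reads of inversions to duplications, with 8 isolates in each test. Ends within 200 bp gave 8.9 for both kinds of evidence. Without AR16 FGSC2643, 32.6% of members and 23.6% of inversions were specific, the log2 read ratio of the types was 0.00116 and members differed from other calls by -4.05 percentage points, and r was 0.848.

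Alternatives added after seeing the data left out each of the other isolates, or used read pairs alone, which gave 0.45 for shared to specific reads (exact permutation, adjusted p = 0.0352). Leaving out isolates gave a log2 read ratio of the types from -0.0398 to 0.0435, a member minus other difference from -2.69 to 3.27, a specific difference between the types from -23.3 to -15.3, a difference in both kinds of evidence from 8.46 to 11.4, a shared to specific log2 ratio from 0.25 to 0.48, and r from 0.949 to 0.969, all with AR16 FGSC2643 kept. The LG I inversions over 100 kb fell from 1 to 0 in AR16 FGSC1614 under either minimum, and from 15 to 11 and then 3 in AR16 FGSC2643. The cause of these changes was not tested beyond the fewer calls kept.

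The comparison with mRNA of genes at specific calls and its 4 alternatives were not run, since genes were not placed on the assembly of the calls. The tests were paired by isolate, and the libraries have no replicate numbers to block on. Depth was not in the lists, so uncalled junctions have no limit of detection, and most calls rest on 4 to 6 reads.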
